A study of Oryza sativa with 12 samples.

Results

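The WRKY transcription factor genes of rice were followed across the leaf transcriptomes of plants with altered OsPIP2-1 or OsPIP2-7, aquaporins (water channels) of the plasma membrane. Members were all genes whose name in the authors' deposited comparison tables contains WRKY and whose identifier is a rice gene locus. This gave 99 genes with 97 different names, of 38978 genes in the count table, since OsWRKY4 and OsWRKY16 each stand for 2 loci. The rule used no measured value, but earlier results of these data were known when the members were chosen. They lie on all 12 chromosomes, with 23 on chromosome 1, 17 on chromosome 5 and 10 each on chromosomes 3 and 11.

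Leaf RNA came from the indica variety Pusa Basmati-1 at 2.5 months, with all plants under 16 h light and 8 h dark at 24 °C. The PIP2-1 OE plants carry a 3xMyc-tagged OsPIP2-1 and the PIP2-7 OE plants a 3xFLAG-tagged OsPIP2-7, each behind the maize ubiquitin promoter, which is active in most cells. The PIP2-1 KO and PIP2-7 KO plants were edited with CRISPR-Cas9 and are free of T-DNA. The PIP2-1 WT and PIP2-7 WT groups are unmodified plants of the same variety, given as separate controls for the 2 targets. Each of the 6 groups has 2 libraries. The labels do not say how many independent lines stand behind a group, whether the WT plants also went through tissue culture, or whether its libraries are separate plants. The p-values therefore cover the variation between paired libraries alone, and this may be technical.

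WRKY proteins bind the W-box, a short DNA element in the promoters of many plant defence genes, through a zinc-finger domain that carries the amino acids W, R, K and Y. In rice leaves they act downstream of pattern receptors, MAP kinases and the hormone salicylic acid. Some members activate immune genes and others repress them, and further members take part in leaf senescence, hormone responses, heat tolerance and phosphate supply. Many WRKY genes respond quickly to wounding, microbes and drought, so their transcript levels differ between plants in different states.

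Library totals ran from 24636211 to 40666127 counts, and WRKY genes took 0.0581% to 0.199% of them. OsPIP2-1 averaged 1901 ± 36.6 CPM (counts scaled to a common library size after TMM normalisation, SD, n = 2) in PIP2-1 OE and 138 ± 4.55 CPM in PIP2-1 KO, against 132 ± 0.687 CPM in PIP2-1 WT. OsPIP2-7 averaged 1708 ± 73.6 CPM in PIP2-7 OE and 158 ± 3.26 CPM in PIP2-7 KO, against 687 ± 6.04 CPM in PIP2-7 WT. The libraries labelled PIP2-1 KO thus held as much target transcript as their WT. An edit of a few bases need not change a transcript count, so the counts do not check that label. OsPIP2-7 differed in the PIP2-1 experiment too, at 962 ± 38.5 CPM in PIP2-1 KO and 293 ± 1.82 CPM in PIP2-1 OE, against 337 ± 1.85 CPM in PIP2-1 WT. The WT pairs thus also differed in OsPIP2-7. OsPIP2-1 averaged 116 CPM in PIP2-7 OE and 151 CPM in PIP2-7 KO, against 140 CPM in PIP2-7 WT. The 6 leaf mesophyll markers (small subunits of Rubisco and chlorophyll-binding proteins) were present in every library, while the 5 floral and meristem genes found in the table summed to at most 0.654 CPM.

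WRKY genes as a family were modestly expressed. Averaged over the 12 libraries, 43 of the 99 were under 1 CPM, 28 were between 1 and 10 CPM, and 28 were at 10 CPM or more. The median level of a member was 1.74 CPM, and the 10 most abundant made up 54.3% of the family's sum. Per kilobase of annotated exon the highest were OsWRKY104 with 92.6 CPM, OsWRKY53 with 56.1 CPM and OsWRKY13 with 53.1 CPM. OsWRKY104 owed that place to a single group, described below. OsWRKY53, an early responder to microbial patterns that MAP kinases phosphorylate, and OsWRKY13, an activator of resistance to blast and bacterial blight, had at least 17.2 CPM in every library.

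Only 3 members had no count in any library. Between 11 and 20 members had none in a given library. At these depths a floor of 3 counts stands for 0.0738 to 0.122 CPM before scaling. In the PIP2-1 libraries 68 members passed edgeR's filter on low counts and were tested, in the PIP2-7 libraries 70, and over all 12 libraries 72. Of the members that did not pass, OsWRKY75, OsWRKY108, OsWRKY12 and OsWRKY56 had the most counts. OsWRKY75 had at most 0.350 CPM, in a PIP2-7 KO library, and OsWRKY108 at most 0.280 CPM, in a PIP2-1 WT library. OsWRKY12 reached 0.201 CPM and OsWRKY56 0.161 CPM.

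Members varied widely among the groups. For the 56 members with a mean of at least 1 CPM, the highest and lowest group means lay a median of 1.97 apart on the log2(CPM + 0.1) scale, against 0.84 for all 19419 genes at that level. At the steady end, OsWRKY88 differed 1.37-fold and OsWRKY90 1.45-fold between its highest and lowest groups. At the other end, OsWRKY104 differed 251-fold, OsWRKY95 137-fold and OsWRKY62 113-fold, the last with only 4 counts in its lowest group. PIP2-1 KO held the lowest mean for 27 of the 56 members, which is 48.2% of them, against 22.8% of all genes. PIP2-1 WT held the highest mean for 17 members, or 30.4%, against 10.2% of all genes. These shares are descriptions over genes of the same libraries.

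The family's summed level differed between groups far more than between replicates. It was 1056 and 1078 CPM in the PIP2-1 OE libraries and 605 and 626 CPM in the PIP2-1 KO libraries, against 1264 and 1261 CPM in PIP2-1 WT. In the other experiment it was 1082 and 1082 CPM in PIP2-7 OE and 1911 and 1901 CPM in PIP2-7 KO, against 802 and 824 CPM in PIP2-7 WT. The order from low to high was therefore PIP2-1 KO, PIP2-7 WT, the OE groups with nearly equal sums, PIP2-1 WT and PIP2-7 KO. The OE groups averaged 1067 ± 15.7 CPM for PIP2-1 and 1082 ± 0.260 CPM for PIP2-7 (SD, n = 2 each), a gap smaller than the first SD. Much of the PIP2-7 KO sum came from OsWRKY104 and OsWRKY95. Without them, a step chosen after seeing the data, PIP2-7 KO stood at 1139 ± 11.3 CPM, against 787 ± 15.7 CPM in PIP2-7 WT (SD, n = 2 each), and PIP2-1 WT was then the highest group at 1255 ± 2.95 CPM. In leaf tissue, fewer cells that express a gene and less RNA per cell cannot be told apart. A read that aligned to more than 1 locus counted for each, so reads shared by similar members may enter these sums more than once.

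**Figure D1:**
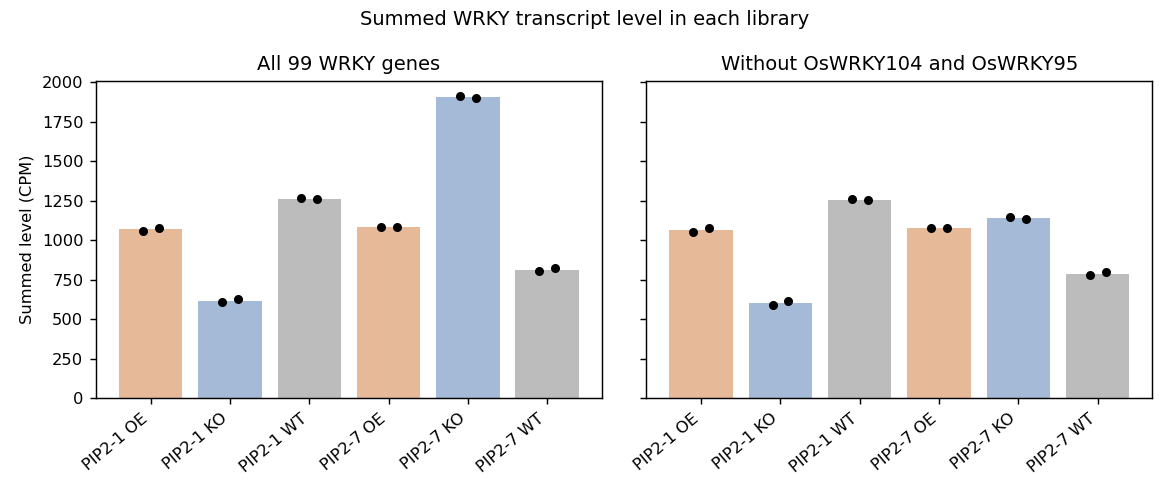
Summed level of the WRKY genes in CPM in the 6 groups, for all 99 members (left) and without OsWRKY104 and OsWRKY95 (right); bars are means of 2 libraries and points are libraries. PIP2-7 KO is highest at 1906 CPM on the left, and without the pair of genes it stands at 1139 CPM.

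The WT groups themselves differed in most members. Of 72 members tested over all 12 libraries, 12 were higher and 45 lower in PIP2-7 WT than in PIP2-1 WT (edgeR's quasi-likelihood test, Benjamini-Hochberg adjusted p under 0.05), where 28.1% of all genes were higher and 28.5% lower. The members' median log2 change was -0.60, against -0.00968 for all genes. At least 2-fold differences were seen in 7 higher and 26 lower members (6.97% and 8.91% of all genes). OsWRKY45, a central factor of salicylic acid signalling in blast resistance, had 13.1 and 12.4 CPM in PIP2-7 WT, against 76.7 and 68.1 CPM in PIP2-1 WT. That is a log2 change of -2.50 ± 0.07 (SE, edgeR adjusted p = 4.59e-36). OsWRKY79 had 5 counts over both PIP2-7 WT libraries, against 375 in PIP2-1 WT (log2 change -6.19 ± 0.37).

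The repressors of defence in group IIa of the family were low in PIP2-7 WT. OsWRKY62 had 0.248 and 0.317 CPM there, against 5.31 and 6.19 CPM in PIP2-1 WT, a log2 change of -4.33 ± 0.29 (edgeR adjusted p = 4.56e-19). Its neighbour OsWRKY76 had 0.806 and 1.18 CPM, against 8.61 and 7.18 CPM (log2 change -2.97 ± 0.22, edgeR adjusted p = 1.45e-17). Among genes higher in PIP2-7 WT, OsWRKY30, a MAP kinase target linked to drought tolerance and disease resistance, had 10.1 and 11.6 CPM, against 1.52 and 2.24 CPM in PIP2-1 WT (log2 change 2.49 ± 0.16, edgeR adjusted p = 5.54e-20). OsWRKY95 was 1.82 ± 0.09 and OsWRKY104 1.63 ± 0.10 higher on the log2 scale. Libraries without overlap were a condition for naming these genes, so their lack of overlap is no added evidence. Both WT groups are the same variety at the same age, so the leading results of each line are given against both pairs, and a value with no pair named is against the own WT. Comparisons with the other pair cross the 2 experiments.

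In PIP2-1 OE more WRKY genes fell than rose. Of 68 tested members 14 rose and 29 fell against PIP2-1 WT, where 23.2% of all tested genes rose and 20.9% fell. The median log2 change was -0.28 for the members and 0.00152 for all genes. At least 2-fold changes were seen in 2 rises and 8 falls (5.7% and 3.7% of all genes). The falls were led by OsWRKY62 and OsWRKY76, group IIa repressors that lie 15188 bases apart on chromosome 9 (OsWRKY76 at chr9:14976197-14977729, OsWRKY62 at chr9:14992918-14994888, IRGSP-1.0, both on the minus strand). OsWRKY62 had 0.101 and 0 CPM in the PIP2-1 OE libraries, 4 counts in all, against 5.31 and 6.19 CPM in PIP2-1 WT (log2 change -6.75 ± 0.40, edgeR adjusted p = 1.29e-16). OsWRKY76 had 0.279 and 0.346 CPM, against 8.61 and 7.18 CPM (log2 change -4.63 ± 0.24, edgeR adjusted p = 4.13e-18).

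For both genes every OE library lay below every WT library, which for PIP2-1 WT was a condition of naming them. Both were also lower against PIP2-7 WT, with log2 changes of -2.42 for OsWRKY62 and -1.67 for OsWRKY76. OsWRKY60 behaved likewise, with 0.431 and 0.247 CPM in PIP2-1 OE, against 1.90 and 1.43 CPM in PIP2-1 WT (log2 change -2.27 ± 0.38, and -1.44 against PIP2-7 WT). OsWRKY45 had 15.8 and 15.3 CPM in PIP2-1 OE, against 76.7 and 68.1 CPM in PIP2-1 WT (log2 change -2.22 ± 0.07, edgeR adjusted p = 2.08e-25). That fall turned round against PIP2-7 WT, where OsWRKY45 was 0.29 higher on the log2 scale (edgeR adjusted p = 0.00208). OsWRKY7, with a log2 change of -1.82 ± 0.14, was 0.29 higher against PIP2-7 WT, which did not pass the test.

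The largest rise in PIP2-1 OE was that of OsWRKY10, which lay under the mean of 1 CPM asked of the other named rises. It had 0.863 and 1.36 CPM in PIP2-1 OE, against 0.531 and 0.357 CPM in PIP2-1 WT (log2 change 1.36 ± 0.37, edgeR adjusted p = 0.00275), and was 1.09 higher against PIP2-7 WT. It was the single rise of at least 2-fold against both WT pairs. OsWRKY4 (Os03g0758900) had 15.2 and 13.8 CPM in PIP2-1 OE, against 6.37 and 7.06 CPM in PIP2-1 WT (log2 change 1.10 ± 0.10, edgeR adjusted p = 1.78e-11), and -0.0018 against PIP2-7 WT. OsWRKY70, which in rice weighs defence against growth, had 3.15 and 3.68 CPM, against 2.05 and 1.89 CPM (log2 change 0.80 ± 0.21), and OsWRKY24, a repressor of gibberellin and abscisic acid responses in the grain, had 14.5 and 14.1 CPM, against 9.63 and 7.64 CPM (0.74 ± 0.11). OsWRKY15 changed by 0.79 ± 0.22 and OsWRKY63 by 0.72 ± 0.25, and OsWRKY15 did not pass against PIP2-7 WT (0.13). The call of OsWRKY15 was lost without PIP2-1 WT replicate 1 and that of OsWRKY70 without PIP2-1 OE replicate 2. That of OsWRKY63 was lost with DESeq2 and without PIP2-1 OE replicate 1 or PIP2-1 WT replicate 2. Against PIP2-7 WT, OsWRKY70, OsWRKY24 and OsWRKY63 were higher by 1.36, 1.83 and 1.74.

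Of the 14 members that rose in PIP2-1 OE, 11 were also higher when the PIP2-7 WT libraries served as control. Of the 29 that fell, 13 were also lower, 14 were higher and 2 passed no test. Against both WT pairs, 9.27% of all genes were higher and 6.95% lower in PIP2-1 OE. Set against PIP2-7 WT alone, 36 of 72 members were higher and 15 lower in PIP2-1 OE (25.2% and 24.1% of all genes), and the median turned to 0.37. The excess of falls thus held against PIP2-1 WT and not against PIP2-7 WT, while the falls of OsWRKY62, OsWRKY76 and OsWRKY60 held against both.

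**Figure D2:**
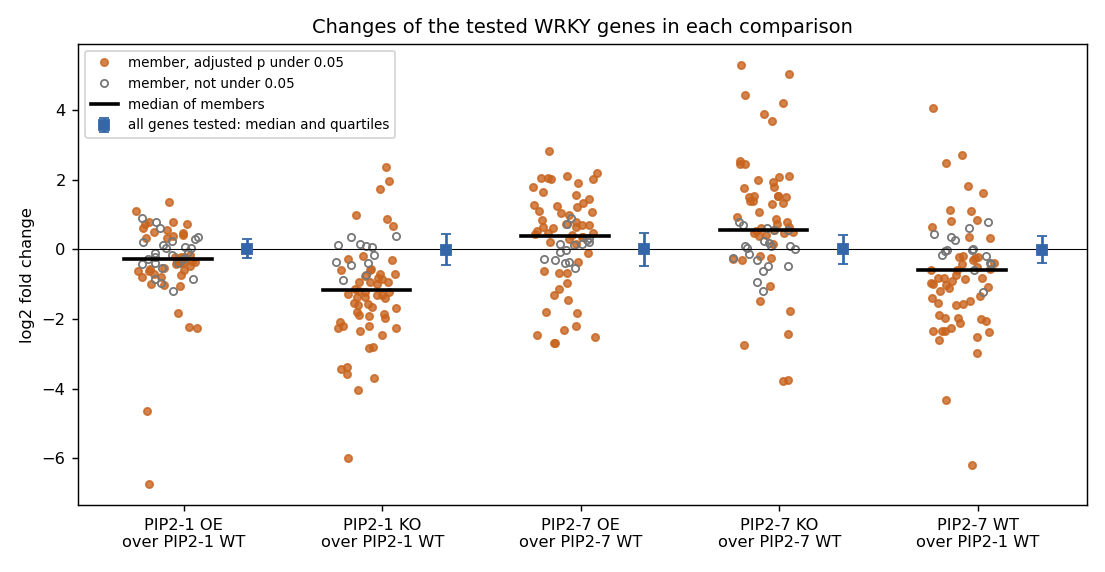
Log2 fold change of every tested WRKY gene in the 4 comparisons of a line with its own WT and between the WT pairs; black bars are medians of the members, squares with bars the median and quartiles of all tested genes. Members centre at -0.28, -1.17, 0.39, 0.55 and -0.60, while the medians of all genes lie near 0.

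Among the 4 comparisons with the own WT, the median of the family lay farthest from 0 in the libraries labelled PIP2-1 KO. Of 68 tested members 50 fell and 6 rose against PIP2-1 WT, where 31.9% of all genes fell and 30.5% rose, and the members' median log2 change was -1.17. At least 2-fold changes were seen in 36 falls and 3 rises (11.9% and 10.2% of all genes). OsWRKY79 had 0.0934 and 0.0769 CPM in PIP2-1 KO, 5 counts in all, against 5.91 and 5.58 CPM in PIP2-1 WT (log2 change -6.00 ± 0.34, edgeR adjusted p = 1.36e-17). It did not pass against PIP2-7 WT (0.19), which also held 5 counts. OsWRKY9 had 1.43 and 1.62 CPM, against 25.6 and 24.6 CPM (log2 change -4.05 ± 0.12, edgeR adjusted p = 1.11e-25). OsWRKY14 had 0.374 and 0.269 CPM, against 4.47 and 4.05 CPM (-3.69 ± 0.29). The falls of OsWRKY9 and OsWRKY14 held against PIP2-7 WT, at -1.43 and -1.32.

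The listed group IIa members fell together. OsWRKY28 had 0.125 and 0.269 CPM in PIP2-1 KO, against 2.09 and 2.47 CPM in PIP2-1 WT (log2 change -3.57 ± 0.39, edgeR adjusted p = 7.51e-10). OsWRKY62 had 0.623 and 0.423 CPM, against 5.31 and 6.19 CPM (-3.43 ± 0.28). OsWRKY76 changed by -1.87 ± 0.18 and OsWRKY71 by -0.82 ± 0.11. Only the fall of OsWRKY28 held against PIP2-7 WT (-1.23, edgeR adjusted p = 0.0376): OsWRKY76 was then 1.095 higher (edgeR adjusted p = 0.000472), and OsWRKY62 and OsWRKY71 did not pass, at 0.90 and 0.04.

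Of 6 listed immune activators tested, 5 fell as well and 1, OsWRKY30, rose, where 31.9% and 30.5% of all genes did. Against PIP2-7 WT 3 of 8 tested fell and 1 rose (23.2% and 23% of all genes). OsWRKY13 had 17.2 and 18.5 CPM in PIP2-1 KO, against 83.9 and 80.3 CPM in PIP2-1 WT (log2 change -2.20 ± 0.06, edgeR adjusted p = 5.42e-27), and the fall was nearly as large against PIP2-7 WT, at -2.01 (edgeR adjusted p = 8.23e-36). OsWRKY53 had 28.9 and 34.4 CPM, against 157 and 162 CPM (-2.35 ± 0.07), and -1.53 against PIP2-7 WT. OsWRKY13 and OsWRKY53 were therefore lower in PIP2-1 KO than in either WT pair, with no overlap of libraries. OsWRKY45 had 30.7 and 32.1 CPM in PIP2-1 KO, against 76.7 and 68.1 CPM in PIP2-1 WT (-1.20 ± 0.06), but lay 1.30 above PIP2-7 WT.

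The 5 largest rises in PIP2-1 KO among members of at least 1 CPM were OsWRKY30, OsWRKY10, OsWRKY4 (Os03g0758900), OsWRKY95 and OsWRKY118. OsWRKY30 had 10.5 and 9.46 CPM, against 1.52 and 2.24 CPM in PIP2-1 WT (log2 change 2.37 ± 0.17, edgeR adjusted p = 1.01e-14), but it did not differ from PIP2-7 WT beyond the spread (-0.12, edgeR adjusted p = 0.478). OsWRKY10 had 1.71 and 1.69 CPM, against 0.531 and 0.357 CPM (1.98 ± 0.36), and rose against PIP2-7 WT too, by 1.70. OsWRKY4 (Os03g0758900) had 22.6 and 22.0 CPM, against 6.37 and 7.06 CPM (1.72 ± 0.10), and was 0.62 higher against PIP2-7 WT. OsWRKY95 rose by 0.99 ± 0.14 and OsWRKY118 by 0.86 ± 0.17 against PIP2-1 WT, and against PIP2-7 WT they stood at -0.84 and -0.28.

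Of the 50 falls, 24 were also falls against PIP2-7 WT, 23 passed no test there and 3 were rises. In all, 29 of 72 members were lower and 7 higher in PIP2-1 KO than in PIP2-7 WT, with a median of -0.31 (23.2% and 23% of all genes), while 14.6% of all genes were lower and 14.3% higher against both WT pairs. At least 2-fold below both WT pairs were 10 members. By the smaller of their 2 changes, the first 5 were the OsWRKY16 locus Os01g0665750 (-3.39 and -2.97 against PIP2-1 WT and PIP2-7 WT), OsWRKY13, OsWRKY21 (-1.96 and -2.78), OsWRKY24 (-2.80 and -1.72) and OsWRKY53. These 5 were singled out after their values were seen.

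**Figure D3:**
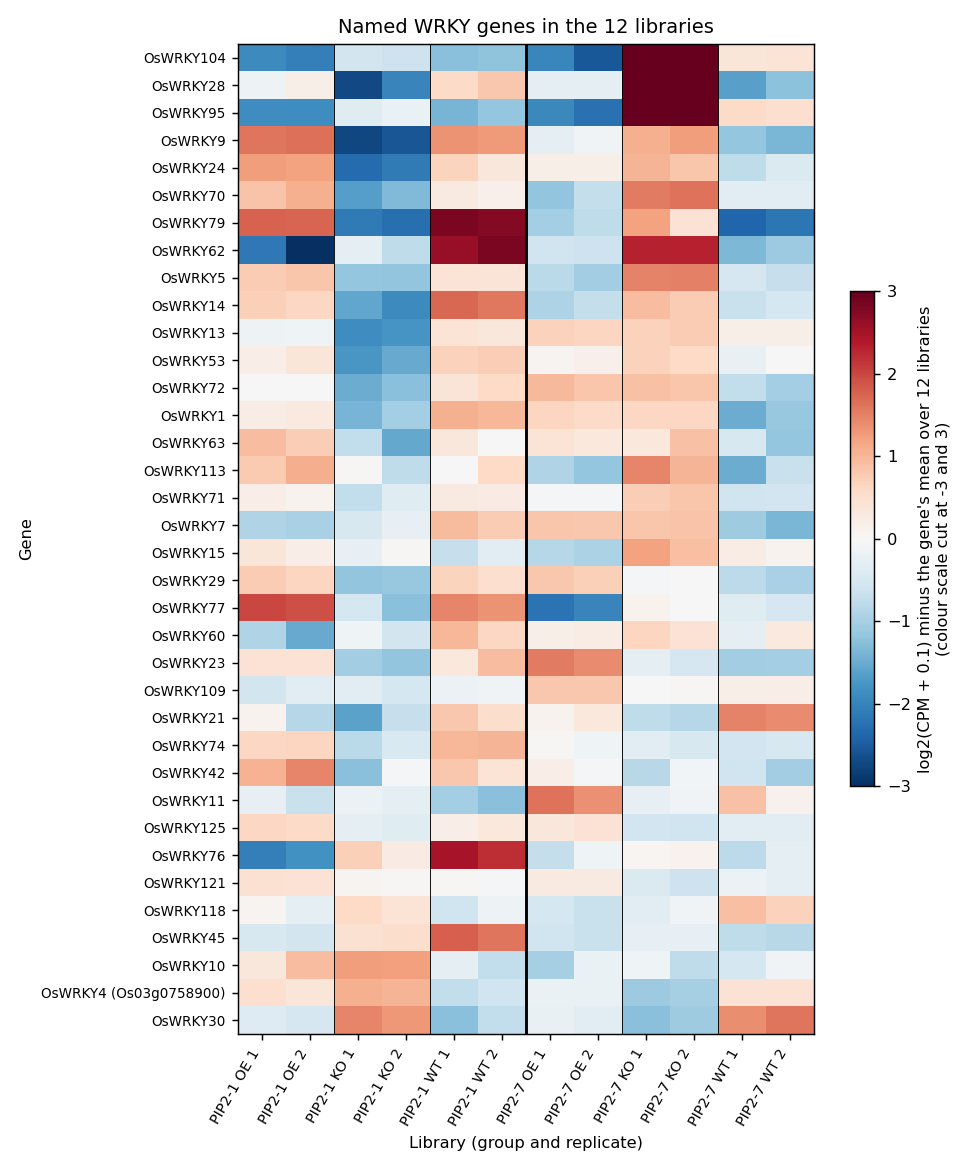
Levels of the named WRKY genes that were tested, in the 12 libraries, as log2(CPM + 0.1) minus the gene's mean, with the colour scale ending at -3 and 3; genes are ordered by the difference between PIP2-7 KO and PIP2-1 KO. The libraries of a group look alike, and most upper rows are blue in PIP2-1 KO and red in PIP2-7 KO.

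In PIP2-7 OE the balance was the other way. Of 70 tested members 38 rose and 17 fell against PIP2-7 WT, where 33.4% of all genes rose and 33.7% fell, and the members' median log2 change was 0.39. At least 2-fold changes were seen in 19 rises and 11 falls (11.3% and 10.8% of all genes). OsWRKY23, which speeds leaf senescence when expressed in Arabidopsis, had 2.40 and 2.14 CPM in PIP2-7 OE, against 0.310 and 0.317 CPM in PIP2-7 WT (log2 change 2.82 ± 0.33, edgeR adjusted p = 5.62e-10). OsWRKY7 had 9.68 and 9.61 CPM, against 2.54 and 2.02 CPM (2.06 ± 0.14). OsWRKY1 had 46.4 and 44.1 CPM, against 10.5 and 13.4 CPM (1.90 ± 0.07, edgeR adjusted p = 2.50e-26). OsWRKY72, which takes part in abscisic acid responses, rose by 1.79 ± 0.11, and OsWRKY29, a factor in seed dormancy, by 1.64 ± 0.12.

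Against PIP2-1 WT these rises shrank or turned. OsWRKY23 was 0.85 higher (edgeR adjusted p = 0.00738) and OsWRKY72 0.42 higher (edgeR adjusted p = 0.000277), OsWRKY29 did not pass (0.17), OsWRKY7 stood at -0.02 and OsWRKY1 at -0.43 (edgeR adjusted p = 2.32e-06). OsWRKY74, a factor of phosphate starvation, rose by 0.45 ± 0.07 against PIP2-7 WT and changed by -1.06 against PIP2-1 WT. OsWRKY11, linked to heat and drought tolerance, had 1.00 and 0.830 CPM in PIP2-7 OE, against 0.558 and 0.288 CPM in PIP2-7 WT (log2 change 1.09 ± 0.41, edgeR adjusted p = 0.0188). That call was lost with DESeq2 and without either of 2 libraries (PIP2-7 OE replicate 1, PIP2-7 WT replicate 2), while the difference from PIP2-1 WT was larger, at 3.82.

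Falls in PIP2-7 OE were led by OsWRKY104 and OsWRKY95. OsWRKY104 had 2.08 and 1.34 CPM, against 10.7 and 11.1 CPM in PIP2-7 WT (log2 change -2.70 ± 0.12, edgeR adjusted p = 1.71e-24). OsWRKY95 had 2.74 and 2.19 CPM, against 16.0 and 15.2 CPM (-2.68 ± 0.10). Both were also lower against PIP2-1 WT, with log2 changes of -1.04 and -0.84. OsWRKY77 had 0.743 and 0.883 CPM, against 2.92 and 2.65 CPM (-1.79 ± 0.23), and the gap to PIP2-1 WT was wider, at -3.65. OsWRKY30 had 3.23 and 3.02 CPM, against 10.1 and 11.6 CPM (-1.82 ± 0.13), but lay 0.69 above PIP2-1 WT. OsWRKY118 fell by 1.44 ± 0.15 on the log2 scale, and did not pass against PIP2-1 WT (-0.28).

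Of the 38 rises, 17 held against PIP2-1 WT, 14 were falls there and 7 passed no test. Of the 17 falls, 9 held, 3 were rises and 5 passed no test. Set against PIP2-1 WT alone, 21 members were higher and 30 lower in PIP2-7 OE (27.1% and 26% of all genes), with a median of -0.33. Against both WT pairs 18.7% of all genes were higher and 16.7% lower.

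PIP2-7 KO held the largest rises of the family among the comparisons with the own WT. Of 70 tested members 39 rose and 11 fell against PIP2-7 WT, where 32.1% of all genes rose and 31.3% fell, with a median log2 change of 0.55 for the members. At least 2-fold changes were seen in 25 rises and 7 falls (10.3% and 9.83% of all genes). OsWRKY104 (Os11g0117400, chr11:782471-783485, IRGSP-1.0, minus strand, 3 exon intervals) had 429 and 432 CPM in PIP2-7 KO, against 10.7 and 11.1 CPM in PIP2-7 WT (log2 change 5.30 ± 0.05, edgeR adjusted p = 4.00e-50). OsWRKY95 (Os12g0116600, chr12:817004-820412, minus strand) had 335 and 339 CPM, against 16.0 and 15.2 CPM (4.43 ± 0.04, edgeR adjusted p = 1.80e-48). In the other 4 groups neither gene exceeded 9.27 CPM. Against PIP2-1 WT the changes were larger still, at 6.94 and 6.25, so both rises passed the test against either WT pair. In the authors' deposited comparison OsWRKY104 also rose in PIP2-7 KO, but OsWRKY95 did not (log2 change 0.097, Cuffdiff q = 0.674).

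OsWRKY28, a group IIa repressor, had 14.8 and 14.9 CPM in PIP2-7 KO, against 0.372 and 0.519 CPM in PIP2-7 WT (log2 change 5.03 ± 0.18, edgeR adjusted p = 4.27e-27), and it was 2.69 higher than in PIP2-1 WT. OsWRKY62 had 4.29 and 4.32 CPM, against 0.248 and 0.317 CPM (3.90 ± 0.29), but it did not pass against PIP2-1 WT (-0.43, edgeR adjusted p = 0.0531). OsWRKY113 had 2.33 and 1.69 CPM, against 0.217 and 0.462 CPM (2.53 ± 0.37), and was 0.93 higher than in PIP2-1 WT. OsWRKY5, a positive regulator of leaf senescence, had 35.6 and 36.1 CPM, against 8.93 and 7.85 CPM (2.09 ± 0.08, edgeR adjusted p = 9.73e-26), and was 1.10 higher than in PIP2-1 WT. OsWRKY28 and OsWRKY5 thus lay above both WT pairs, with no library overlapping, which for OsWRKY28 and PIP2-7 WT was a condition of naming it.

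**Figure D4:**
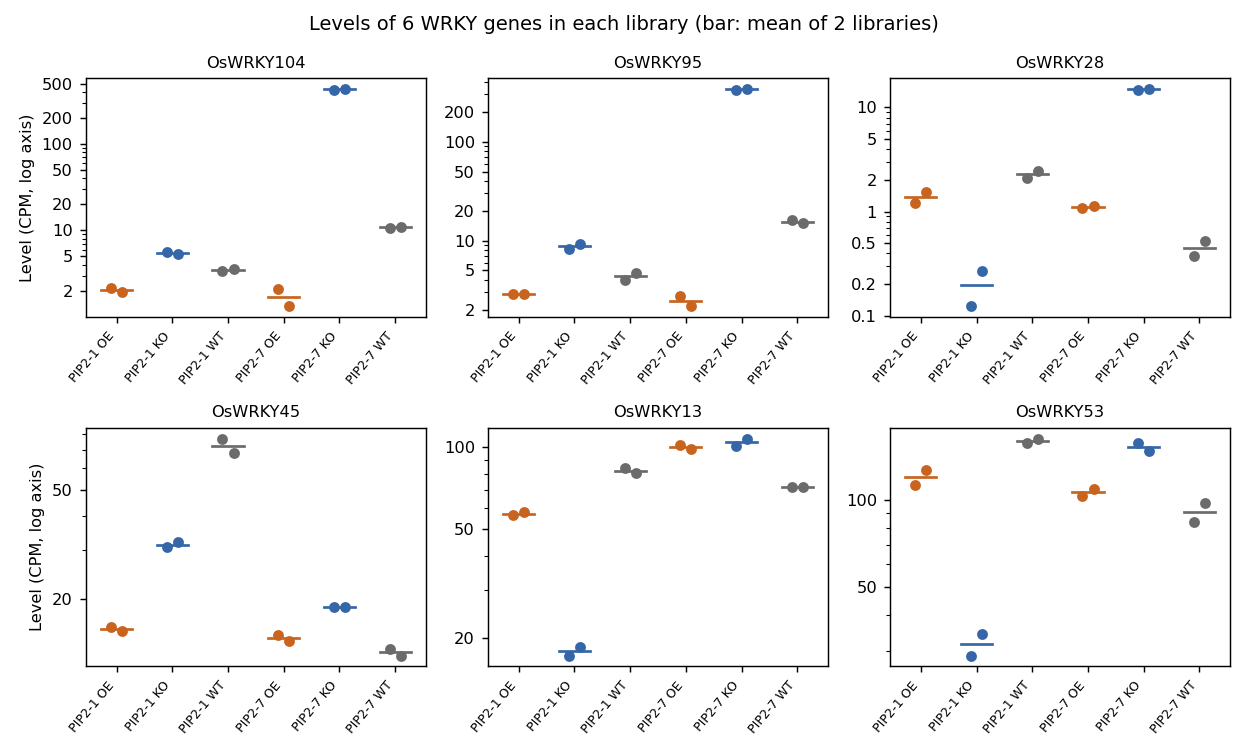
Levels in CPM on log axes of OsWRKY104, OsWRKY95, OsWRKY28, OsWRKY45, OsWRKY13 and OsWRKY53 in the 12 libraries; points are libraries and bars group means. The first 3 are highest in PIP2-7 KO, OsWRKY45 in PIP2-1 WT, and OsWRKY13 and OsWRKY53 are lowest in PIP2-1 KO.

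OsWRKY13, OsWRKY53 and OsWRKY45 rose modestly in PIP2-7 KO, by 0.54 ± 0.04, 0.74 ± 0.05 and 0.55 ± 0.08. Of these, OsWRKY13 was also higher than in PIP2-1 WT, by 0.35, OsWRKY53 did not differ beyond the spread (-0.07) and OsWRKY45 changed by -1.95. Falls were few. OsWRKY30 had 1.53 and 1.75 CPM in PIP2-7 KO, against 10.1 and 11.6 CPM in PIP2-7 WT (log2 change -2.73 ± 0.15, edgeR adjusted p = 2.84e-20), and its level did not differ from PIP2-1 WT beyond the spread (-0.24). OsWRKY21 had 0.691 and 0.642 CPM, against 3.69 and 3.49 CPM (-2.43 ± 0.25), and changed by -1.601 against PIP2-1 WT. OsWRKY4 (Os03g0758900) fell by 1.496 ± 0.11, OsWRKY118 by 1.04 ± 0.14 and OsWRKY121 by 0.30 ± 0.07 on the log2 scale. Against PIP2-1 WT their changes were -0.39, 0.10, which did not pass, and -0.51.

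Of the 39 rises in PIP2-7 KO, 18 held against PIP2-1 WT, 11 were falls there and 10 passed no test. Of the 11 falls, 6 held, 1 was a rise and 4 passed no test. Against both WT pairs 15.4% of all genes were higher and 14.6% lower, and against PIP2-1 WT alone 20 of 72 members were higher and 24 lower (24.4% and 23.8% of all genes), with a median of -0.09.

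**Figure D5:**
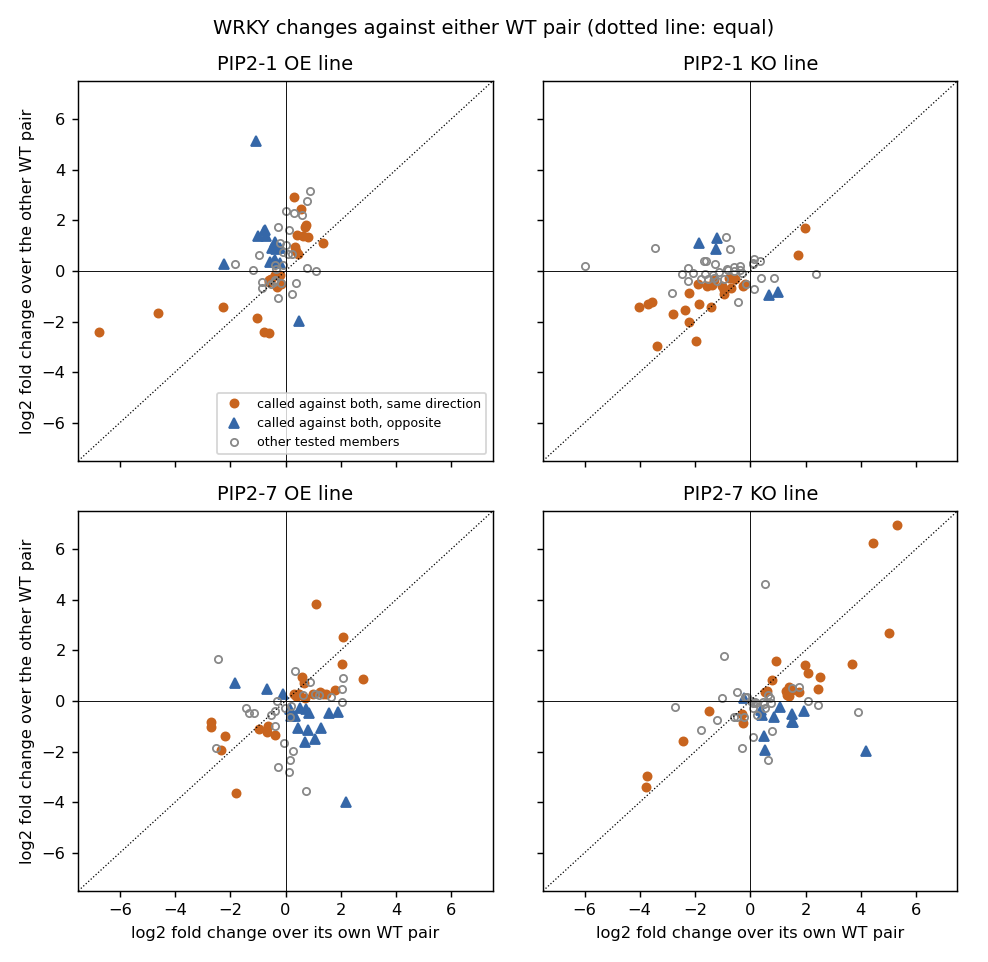
Log2 fold change of each tested WRKY gene over its own WT pair (x) and over the other WT pair (y), for the 4 lines; filled circles passed the test in the same direction against both, triangles in opposite directions. OsWRKY104 and OsWRKY95 stand at the top right for PIP2-7 KO, and 14 of the triangles for PIP2-1 OE are falls over its own WT that are rises over the other.

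The direct comparison of OE and KO within a target needs no WT. For OsPIP2-1, 40 of 68 members were higher and 11 lower in PIP2-1 OE than in PIP2-1 KO, where 28.7% of all genes were higher and 26.8% lower, with a median log2 difference of 0.63. At least 2-fold differences were seen in 28 higher and 7 lower members (10.8% and 6.12% of all genes). OsWRKY9 had 30.8 and 31.8 CPM in PIP2-1 OE, against 1.43 and 1.62 CPM in PIP2-1 KO (log2 difference 4.36 ± 0.12, edgeR adjusted p = 7.20e-27). OsWRKY13 was 1.68 ± 0.06 and OsWRKY53 1.92 ± 0.07 higher in OE. The 7 members at least 2-fold lower in PIP2-1 OE than in PIP2-1 KO were OsWRKY62 (-3.32 ± 0.65), OsWRKY76 (-2.76 ± 0.30), OsWRKY30 (-1.88 ± 0.15), OsWRKY95 (-1.61 ± 0.15), OsWRKY104 (-1.45 ± 0.17), OsWRKY60 (-1.05 ± 0.44) and OsWRKY45 (-1.02 ± 0.07).

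For OsPIP2-7 the family leaned lower in OE than in KO, slightly among all calls and more among differences of at least 2-fold. In PIP2-7 OE 21 of 70 members were higher and 27 lower than in PIP2-7 KO, where 28.4% of all genes were higher and 29.6% lower, with a median of -0.10. At least 2-fold differences were seen in 7 higher and 16 lower members (8.11% and 8.3% of all genes). The log2 differences of OsWRKY104, OsWRKY95 and OsWRKY28 were -8.00 ± 0.06, -7.11 ± 0.06 and -3.76 ± 0.15. OsWRKY5 had 7.14 and 6.08 CPM in PIP2-7 OE, against 35.6 and 36.1 CPM in PIP2-7 KO (-2.46 ± 0.09, edgeR adjusted p = 1.07e-27). OsWRKY23 went against this, with 2.40 and 2.14 CPM in OE, against 0.604 and 0.496 CPM in KO (2.02 ± 0.30). OsWRKY13 (-0.07 ± 0.04) and OsWRKY76 (-0.51 ± 0.28) did not pass the test.

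Members that passed the test in both OE and KO of a target mostly moved the same way, in comparisons that share their WT libraries. Of 68 members tested in both for OsPIP2-1, 27 fell in both and 3 rose in both. Another 9 rose in OE and fell in KO, and 2 did the reverse. For OsPIP2-7, with 70 tested, 27 rose in both and 8 fell in both. There 3 rose in OE and fell in KO, and 6 did the reverse. The shares of all genes were not computed for these counts. The largest opposite changes follow. OsWRKY9, OsWRKY24 and OsWRKY77 changed by 0.32 ± 0.07, 0.74 ± 0.11 and 0.57 ± 0.11 in PIP2-1 OE, and by -4.05 ± 0.12, -2.80 ± 0.18 and -2.27 ± 0.16 in PIP2-1 KO. OsWRKY95 and OsWRKY104 went the other way, at -0.62 ± 0.16 and -0.79 ± 0.18 in PIP2-1 OE and at 0.99 ± 0.14 and 0.66 ± 0.16 in PIP2-1 KO. The call of OsWRKY95 in PIP2-1 OE was lost without PIP2-1 WT replicate 2. In the other experiment OsWRKY125 changed by 0.71 ± 0.05 in PIP2-7 OE and by -0.27 ± 0.06 in PIP2-7 KO, OsWRKY109 by 0.60 ± 0.05 and -0.18 ± 0.05, and OsWRKY121 by 0.47 ± 0.06 and -0.30 ± 0.07. In the other direction, OsWRKY104 changed by -2.70 ± 0.12 in PIP2-7 OE and by 5.30 ± 0.05 in PIP2-7 KO, OsWRKY95 by -2.68 ± 0.10 and 4.43 ± 0.04, and OsWRKY70 by -0.68 ± 0.27 and 1.99 ± 0.20. The call of OsWRKY70 in PIP2-7 OE was lost with DESeq2, in the fit of the 4 libraries compared, and without PIP2-7 OE replicate 1 or either PIP2-7 WT library.

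The changes of the lines over their own WT were set against each other in 1 fit of all 12 libraries. The KO change was higher in the PIP2-7 experiment than in the PIP2-1 experiment in 50 of 72 members and lower in 9. Of all genes, 34.6% and 32.8% differed in these directions, and the members' median difference was 1.76 on the log2 scale. The difference reached 2-fold in 44 and 7 members (18.9% and 18.1% of all genes). The OE change was higher in the PIP2-7 experiment in 37 members and lower in 14, where 31.6% and 30.9% of all genes differed. The median difference was 0.52, and the difference reached 2-fold in 24 and 12 members (14.1% and 15.3% of all genes). Of 66 members tested in both experiments, 37 had KO changes that passed the test in opposite directions and a difference that passed too, which is 56.1% of them, against 37.5% of all genes. For the OE changes it was 25 members, or 37.9%, against 29% of all genes. Since the WT pairs enter these differences with opposite signs, they cannot be told apart from the difference between the WT pairs.

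OsWRKY104 and OsWRKY95 lie in the ends of chromosomes 11 and 12 that descend from a shared duplicated segment, and a read that aligned to more than 1 locus counted for each of them, per the file headers. Their counts may therefore hold some of the same reads and are uncertain as separate measures. OsWRKY104 had 1.28 times the counts of OsWRKY95 in PIP2-7 KO (29678 and 23256 counts) and 0.637 to 0.793 times in the other 5 groups. Other WRKY genes of the same ends rose less or fell. OsWRKY46 and OsWRKY97, the pair next to them, had 30.4 and 26.3 CPM in PIP2-7 KO, against 11.5 and 10.4 CPM in PIP2-7 WT. Their log2 changes were 1.398 ± 0.07 and 1.34 ± 0.08, beside those in PIP2-7 OE, at 1.45 ± 0.07 and 1.34 ± 0.08. OsWRKY64, the next gene after OsWRKY95, had 4 counts over both PIP2-7 KO libraries, against 55 in PIP2-7 WT (-3.75 ± 0.67).

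Within 100 kb of OsWRKY104, 27 genes were tested in the PIP2-7 experiment, of which 6 rose and 10 fell in PIP2-7 KO, with a median log2 change of -0.19. Around OsWRKY95, 34 were tested, of which 5 rose and 13 fell, with a median of -0.11. The largest rises among these neighbours were 2.52 and 2.29, below the 5.30 and 4.43 of the WRKY genes themselves.

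The members were also grouped by known role. The shares of all genes called are those given above for each comparison, and with so few members a count is a description. Of the 8 immune activators listed (OsWRKY45, OsWRKY13, OsWRKY53, OsWRKY30, OsWRKY31, OsWRKY67, OsWRKY6 and OsWRKY89), 6 were tested in the PIP2-1 libraries. There 5 fell and 1, OsWRKY30, rose, in PIP2-1 OE as in PIP2-1 KO. In the PIP2-7 libraries all 8 were tested, with 5 rises and 2 falls in PIP2-7 OE and 4 rises and 1 fall in PIP2-7 KO, where 33.4% and 32.1% of all genes rose. Against the other WT pair the 8 gave 3 rises and 3 falls in PIP2-1 OE, 1 and 3 in PIP2-1 KO, 5 and 2 in PIP2-7 OE, and 3 and 1 in PIP2-7 KO. Of the 4 listed group IIa members, 3 fell in PIP2-1 OE and 4 in PIP2-1 KO, while 2 rose in PIP2-7 OE and 3 in PIP2-7 KO. The medians were -2.68, -2.65, 0.64 and 2.64 (log2). With the other pair as control 2 rose and 2 fell in PIP2-1 OE, 1 rose and 1 fell in PIP2-1 KO, all 4 fell in PIP2-7 OE, and 2 rose and 1 fell in PIP2-7 KO. The fall of OsWRKY28 in PIP2-1 OE (-0.73 ± 0.26) was lost with DESeq2 and without PIP2-1 OE replicate 1 or PIP2-1 WT replicate 2, and against PIP2-7 WT the gene was 1.62 higher (edgeR adjusted p = 5.93e-06). The rise of OsWRKY53 in PIP2-7 OE (0.21 ± 0.06) was lost with DESeq2, in the fit of all 12 libraries and without PIP2-7 WT replicate 1, and against PIP2-1 WT the change was -0.59 (edgeR adjusted p = 0.000816).

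The factors known from hormone responses of the seed (OsWRKY51, OsWRKY71, OsWRKY24, OsWRKY72 and OsWRKY29) all fell in PIP2-1 KO, with a median of -1.79, and all 5 rose in PIP2-7 OE and in PIP2-7 KO, with medians of 0.74 and 1.39. In PIP2-1 OE 1 rose and 1 fell. Against the other WT pair all 5 rose in PIP2-1 OE, 3 fell in PIP2-1 KO, 1 rose and 3 fell in PIP2-7 OE, and 3 rose and 2 fell in PIP2-7 KO. OsWRKY78, also listed, matched no member. Among the senescence regulators, OsWRKY42, OsWRKY23 and OsWRKY5 all fell in PIP2-1 KO, and OsWRKY5 alone of the 3 passed against PIP2-7 WT (-0.59). The call of OsWRKY42 there (-1.59 ± 0.63, 9 counts over both KO libraries) was lost with DESeq2 and without PIP2-1 KO replicate 1 or PIP2-1 WT replicate 1. OsWRKY5 rose in PIP2-1 OE (0.41 ± 0.08) and PIP2-7 KO and fell in PIP2-7 OE (-0.37 ± 0.11). Its call in PIP2-7 OE was lost without PIP2-7 OE replicate 2 or PIP2-7 WT replicate 1.

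Signalling genes known to act before WRKY factors changed in both directions. Of 35 tested (MAP kinases and their kinases, chitin receptors, JAZ repressors and salicylic acid regulators), 6 rose and 17 fell in PIP2-1 OE, 8 rose and 15 fell in PIP2-1 KO, 9 rose and 18 fell in PIP2-7 OE, and 18 rose and 10 fell in PIP2-7 KO. Their medians lay between -0.19 and 0.13. Of all genes 23.2% rose and 20.9% fell in PIP2-1 OE, 30.5% and 31.9% in PIP2-1 KO, 33.4% and 33.7% in PIP2-7 OE, and 32.1% and 31.3% in PIP2-7 KO. Against the other WT pair, with 35 tested, rises and falls were 12 and 13, 15 and 10, 7 and 18, and 10 and 7 in the same order. Of all genes 25.2% rose and 24.1% fell against that pair in PIP2-1 OE, and 23% and 23.2% in PIP2-1 KO. In PIP2-7 OE 27.1% rose and 26% fell, and in PIP2-7 KO 24.4% and 23.8%. The gene named OsMPK6 in the files (Os10g0533600), a MAP kinase, averaged 35.8 ± 0.0978 CPM in PIP2-1 KO, against 47.8 ± 1.29 CPM in PIP2-1 WT (log2 change -0.42). It averaged 45.7 ± 1.26 CPM in PIP2-7 KO, against 33.0 CPM in PIP2-7 WT (0.46). The gene named MAPK6 (Os06g0154500) averaged 50.3 CPM in PIP2-1 KO, against 46.4 CPM in PIP2-1 WT, which did not pass (0.11), and 50.4 CPM in PIP2-7 KO, against 37.7 CPM in PIP2-7 WT (0.41). CEBIP, the chitin-binding receptor, averaged 72.7 CPM in PIP2-1 OE and 90.5 CPM in PIP2-1 KO, against 11.7 CPM in PIP2-1 WT, and 5.02 CPM in PIP2-7 OE and 5.94 CPM in PIP2-7 KO, against 40.9 CPM in PIP2-7 WT. Both KO changes of OsMPK6 and all 4 changes of CEBIP passed the test against the own WT. Between the WT pairs OsMPK6 changed by -0.53 and CEBIP by 1.81 (log2, PIP2-7 WT over PIP2-1 WT), and both passed. By group means the KO changes of OsMPK6 reverse against the other pair, while the changes of CEBIP keep their directions.

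Defence genes known to lie downstream (pathogenesis-related genes, phenylalanine ammonia-lyases and enzymes of diterpene phytoalexin synthesis) were listed as well. Of 41 listed, 27 passed the filter in the PIP2-1 libraries, where 15 rose and 3 fell in PIP2-1 OE and 11 rose and 6 fell in PIP2-1 KO. In the PIP2-7 libraries 31 passed it, and 5 rose and 17 fell in PIP2-7 OE, while 17 rose and 8 fell in PIP2-7 KO. The medians were 1.36, -0.08, -1.37 and 1.34. The shares of all genes, for the own and for the other WT pair, are those given with the signalling genes. Against the other WT pair 15 rose and 8 fell in PIP2-1 OE, 7 rose and 10 fell in PIP2-1 KO, 5 rose and 17 fell in PIP2-7 OE, and 21 rose and 3 fell in PIP2-7 KO, of 32 tested. RSOsPR10, a pathogenesis-related gene, averaged 28.1 ± 0.220 CPM in PIP2-1 OE and 2.67 ± 0.137 CPM in PIP2-1 KO, against 4.73 ± 0.475 CPM in PIP2-1 WT. It averaged 1.03 ± 0.168 CPM in PIP2-7 OE and 38.0 ± 0.680 CPM in PIP2-7 KO, against 6.81 CPM in PIP2-7 WT. OsPAL1, an entry enzyme of phenylpropanoid synthesis, averaged 13.1 ± 0.264 CPM in PIP2-7 KO, against 0.165 CPM in PIP2-7 WT (log2 change 6.28). OsPR4, another pathogenesis-related gene, went the other way, with 1.42 ± 0.587 CPM in PIP2-7 KO, against 36.8 ± 1.10 CPM in PIP2-7 WT (-4.70). It averaged 22.8 ± 0.214 CPM in PIP2-1 KO, against 0.748 ± 0.121 CPM in PIP2-1 WT (4.95). The WT pairs themselves differed in OsPR4, by 5.64 (log2, PIP2-7 WT over PIP2-1 WT, edgeR adjusted p = 4.83e-37). By group means PIP2-7 KO lay above PIP2-1 WT and PIP2-1 KO below PIP2-7 WT, so both directions reverse with the other pair.

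Leaf state differed between the groups as well. SGR, the gene of chlorophyll breakdown in senescing leaves, averaged 20.7 CPM in PIP2-1 OE and 4.94 CPM in PIP2-1 KO, against 102 CPM in PIP2-1 WT, and 160 CPM in PIP2-7 OE and 108 CPM in PIP2-7 KO, against 4.25 CPM in PIP2-7 WT. NYC1, a chlorophyll b reductase, moved in the same directions (log2 changes -0.65, -0.54, 1.00 and 0.37 in the 4 lines). NOL, its partner, averaged 35.8 CPM in PIP2-1 KO, against 23.5 CPM in PIP2-1 WT, a rise (0.61), and did not pass in PIP2-1 OE or PIP2-7 KO. Between the WT pairs SGR changed by -4.58 (log2, PIP2-7 WT over PIP2-1 WT, edgeR adjusted p = 4.97e-48). By group means PIP2-1 OE and PIP2-1 KO lay above PIP2-7 WT in SGR, so their falls do not hold against that pair. The 3 senescence genes found (SGR, NYC1 and NOL) summed to 152 to 153 CPM in PIP2-1 OE and 154 to 160 CPM in PIP2-1 KO, against 292 to 298 CPM in PIP2-1 WT. Their sums were 454 to 469 CPM in PIP2-7 OE and 303 CPM in PIP2-7 KO, against 160 to 163 CPM in PIP2-7 WT. The 6 mesophyll markers summed to 23695 to 23955 CPM in PIP2-1 OE and 45876 to 50209 CPM in PIP2-1 KO, against 14454 to 14983 CPM in PIP2-1 WT. In the PIP2-7 libraries the sums were 13668 to 13755 CPM in OE and 16323 to 16530 CPM in KO, against 27522 to 28134 CPM in WT. The 2 root markers summed to at most 9.99 CPM and the 2 secondary wall markers to at most 2.77 CPM. These markers moved with the groups, and their part in the WRKY changes was not tested.

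In the authors' deposited tables, made with Cuffdiff, 7 of the 99 members were significantly higher and 23 lower in PIP2-1 OE, and 3 were higher and 44 lower in PIP2-1 KO, each against PIP2-1 WT, where 5.61% and 7.85% of all genes were significant in PIP2-1 OE and 7.05% and 18.3% in PIP2-1 KO. Against PIP2-7 WT the same deposited tables list 35 higher and 5 lower in PIP2-7 OE, and 36 higher and 4 lower in PIP2-7 KO, where 18.2% and 7.96% of all genes were significant in PIP2-7 OE and 16.2% and 7.72% in PIP2-7 KO. Single genes could differ from the values above. There OsWRKY104 was significantly higher in PIP2-7 KO (log2 change 8.66), but OsWRKY95 was not (0.097). OsWRKY95 was significantly higher in PIP2-7 OE (1.02) and significantly lower in PIP2-1 KO (-1.16), the reverse of its directions here. OsWRKY64 stood at 0.19 in PIP2-7 KO, which was not significant.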

How the data were processed

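RNA-seq libraries of rice leaves were analysed, 2 in each of 6 groups. The authors deposited raw read counts per gene, made with featureCounts 1.4.0 on the Ensembl release 52 annotation, with reverse-strand counting and multi-mapping reads counted at each locus, per the file headers. Trimming with Trim Galore, alignment with HISAT2 and the build IRGSP-1.0 are per the submitters' processing notes. The exon length of each gene is as deposited in the count table. The authors' deposited comparison tables give log2 fold changes and p- and q-values from Cuffdiff 2.2.1, per the submitters' processing notes. CPM values were computed here from the deposited counts with TMM scaling. All genes were fitted per experiment with edgeR 4.0.16 in R 4.3.3 (filterByExpr, TMM, robust quasi-likelihood fit and test), and p-values were Benjamini-Hochberg adjusted over all tested genes. A gene is called at an adjusted p under 0.05. Standard errors were back-calculated from the log2 change and the F statistic and are approximate. Comparisons between experiments used 1 fit of all 12 libraries. DESeq2 1.42.0 and the other alternatives stand in the closing section, and the fit was tested on simulated counts.

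Features other than rice gene loci took 1.35% to 3.19% of the counts. The floor of 3 counts covers counting error only. Named genes were the 5 largest rises and falls per line (called, no overlap between libraries, mean of at least 1 CPM), the 3 largest each way between the WT pairs, genes of a list of roles, the 3 of highest level per length, up to 3 each way whose OE and KO calls had opposite signs, and 4 members under the filter. Members and lists were chosen with earlier results of these data known.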

Additional observations from a re-analysis of the deposited data

Results flagged for a closer look

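For these named genes the change passed the test in opposite directions in the 2 experiments, and the difference between the changes (PIP2-7 minus PIP2-1, log2 scale, edgeR, 1 fit of 12 libraries) passed as well. For OE over WT the difference was 3.90 for OsWRKY7, 2.697 for OsWRKY1 and 2.30 for OsWRKY72. It was -2.33 for OsWRKY77, -2.29 for OsWRKY30, -1.91 for OsWRKY15, -1.75 for OsWRKY4 (Os03g0758900) and -1.46 for OsWRKY70.

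For KO over WT the difference was 10.2 for OsWRKY79, 8.62 for OsWRKY28, 7.34 for OsWRKY62, 6.51 for OsWRKY9 and 5.22 for OsWRKY14. It was -5.10 for OsWRKY30, -3.21 for OsWRKY4 (Os03g0758900) and -1.90 for OsWRKY118. OsWRKY79 had 5 counts in PIP2-1 KO and 5 in PIP2-7 WT, so the size of its difference is uncertain. Effects of the lines and the difference between the WT pairs cannot be told apart in these values.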

How the results depend on the processing

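The choice of WT libraries moved the results most. With all 4 WT libraries as control, the called members numbered 8 for PIP2-1 OE, 24 for PIP2-1 KO, 18 for PIP2-7 OE and 16 for PIP2-7 KO, against 43, 56, 55 and 50 with the own pair. With the other pair, PIP2-1 KO had 36. The pooled WT pairs themselves differed in many genes (28.1% of all genes higher and 28.5% lower in PIP2-7 WT). No share of all genes called with the 4 WT libraries is given here, so those lower counts are not a result about WRKY genes. Of 80 changes of named genes over a WT pair, 28 had the opposite sign with the other pair, and 15 of these passed the test there. With all 4 WT libraries none of the 8 below passed it. Among the 28 with the other pair, those in PIP2-1 OE were OsWRKY4 (Os03g0758900) (-0.0018), OsWRKY45 (0.29), OsWRKY7 (0.29), OsWRKY28 (1.62), OsWRKY53 (0.40) and OsWRKY74 (1.16). In PIP2-1 KO they were OsWRKY30 (-0.12), OsWRKY95 (-0.84), OsWRKY104 (-0.97), OsWRKY118 (-0.28), OsWRKY79 (0.19), OsWRKY62 (0.90), OsWRKY45 (1.30), OsWRKY76 (1.095), OsWRKY71 (0.036) and OsWRKY42 (0.38). In PIP2-7 OE they were OsWRKY7 (-0.024), OsWRKY1 (-0.43), OsWRKY30 (0.69), OsWRKY28 (-1.06), OsWRKY71 (-0.30), OsWRKY53 (-0.59) and OsWRKY74 (-1.06). In PIP2-7 KO they were OsWRKY62 (-0.43), OsWRKY118 (0.10), OsWRKY45 (-1.95), OsWRKY53 (-0.069) and OsWRKY109 (0.15). With all 4 WT libraries 8 changed sign: OsWRKY28 (0.027) and OsWRKY74 (0.20) in PIP2-1 OE, OsWRKY95 (-0.19) and OsWRKY104 (-0.38) in PIP2-1 KO, OsWRKY28 (-0.30), OsWRKY53 (-0.24) and OsWRKY74 (-0.49) in PIP2-7 OE, and OsWRKY45 (-1.19) in PIP2-7 KO. The cause was not tested.

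No other alternative changed the sign of any of 86 named changes. Calls of 10 named changes were lost in 25 cases with DESeq2, another set of libraries or 1 library left out. Leaving out 1 library gave 35 to 39 called members in PIP2-1 OE, 53 to 56 in PIP2-1 KO, 49 to 52 in PIP2-7 OE and 48 to 50 in PIP2-7 KO. It gave 45 to 50 for PIP2-1 OE over KO, 44 to 49 for PIP2-7 OE over KO and 48 to 51 between the WT pairs. With the replicate number as a block, the counts were 42, 55, 55 and 52 for the 4 lines. Same-numbered libraries correlated between -0.0824 and 0.0320, so the numbers give no pairing. Low members are limited by depth.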
